A study of Mus musculus with 8 samples.

Results

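T cell receptor (TCR) signalling components were followed in regulatory T cells (Tregs), a CD4 lineage that holds immune responses in check and depends on the transcription factor FoxP3. The genes were taken from a list of 39 named TCR components, through probe sets that the array annotation gives to exactly 1 listed symbol, and where a gene had several, the brightest over the 8 arrays stood for it. This gave 38 of the 39 listed genes, out of 19937 genes measured in all, with 24 activators, 12 negative regulators and 2 genes with both roles (Cd6 and Ptprc). The kinase gene Lck was not analysed here. The cells were FoxP3+ Tregs sorted from mice labelled as Bcl6 knock-out (KO) or wild type (WT), and each genotype had preparations 1 and 2 with an array A and an array B of each. The deleted gene encodes BCL6, a DNA-binding repressor known from follicular helper T cells and germinal centre B cells. Before RNA was taken, all cells spent 16 h with antibodies that engage CD3 and CD28, and each of the 8 Affymetrix arrays received label made from 100 ng of RNA. The level is therefore that of stimulated cells in every group. The labels give no strain, age or sex, do not describe the deleted part of Bcl6, and do not say whether preparations and letters are separate mice, cultures or extracts. All p-values thus reflect only the spread between arrays, part or all of which may be technical.

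The TCR itself has no enzyme activity. It signals through the CD3 and zeta chains, whose tyrosines are phosphorylated by the kinases Lck and Fyn and then bind the kinase Zap70. Zap70 phosphorylates the adaptors Lat and Lcp2 (SLP-76), which gather phospholipase C gamma 1, Vav1 and exchange factors for Ras, and the signal divides into calcium with NFAT, Ras with the MAP kinases, and protein kinase C theta with the Bcl10 and Malt1 complex that leads to NF-kB. Phosphatases, the kinase Csk, ubiquitin ligases of the Cbl family and the diacylglycerol kinases restrain the pathway. Tregs need TCR signals for their suppressive function.

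Promoter letters are shown for the 4 members with no overlap between KO-labelled and WT arrays, namely the 250 bases before the first transcription start listed for each in RefSeq (build GRCm38.p6). Capitals mark matches, as written or as the reverse complement, to TGGAAA (the core that NFAT proteins bind) and GTAAACA (a forkhead factor motif). The Dgka stretch lies at chr10:128745085-128745334 on the minus strand, that of Dgkz at chr2:91963564-91963813 on the minus strand, that of Themis at chr10:28668110-28668359 on the plus strand and that of Nfatc2 at chr2:168601658-168601907 on the minus strand.
Dgka: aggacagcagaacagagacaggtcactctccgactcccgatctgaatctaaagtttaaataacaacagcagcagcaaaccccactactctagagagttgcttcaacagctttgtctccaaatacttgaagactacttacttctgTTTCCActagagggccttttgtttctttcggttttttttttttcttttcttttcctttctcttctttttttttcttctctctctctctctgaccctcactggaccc
Dgkz: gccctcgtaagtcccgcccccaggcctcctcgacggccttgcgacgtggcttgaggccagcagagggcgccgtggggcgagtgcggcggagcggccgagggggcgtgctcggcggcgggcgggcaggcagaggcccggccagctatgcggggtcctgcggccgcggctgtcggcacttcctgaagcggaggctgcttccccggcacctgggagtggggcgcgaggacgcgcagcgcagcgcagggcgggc
Themis: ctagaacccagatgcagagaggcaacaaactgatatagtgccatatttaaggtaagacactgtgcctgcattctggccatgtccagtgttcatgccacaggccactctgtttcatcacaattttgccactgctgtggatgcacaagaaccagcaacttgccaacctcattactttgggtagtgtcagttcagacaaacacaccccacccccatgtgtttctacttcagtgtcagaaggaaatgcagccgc
Nfatc2: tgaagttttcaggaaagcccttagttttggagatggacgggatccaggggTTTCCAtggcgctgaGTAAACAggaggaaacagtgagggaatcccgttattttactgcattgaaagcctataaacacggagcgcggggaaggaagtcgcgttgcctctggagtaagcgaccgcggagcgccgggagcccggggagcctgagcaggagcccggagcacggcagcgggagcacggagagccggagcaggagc
The stretch of Nfatc2 held both motifs, 200 and 185 bases before the start, that of Dgka held TGGAAA, 106 bases before it, and those of Dgkz and Themis held neither. A further motif, TTCNNNGAA, is the palindrome of the STAT type that BCL6 sites resemble, and none of these 4 stretches held it. It was found before a listed start of 3 members, which are shown around the match, in capitals. The window of Cd3d lies at chr9:44981564-44981622 on the plus strand, that of Rasgrp1 at chr2:117342964-117343022 on the minus strand and that of Ptpn22 at chr3:103860027-103860078 on the plus strand.
Cd3d: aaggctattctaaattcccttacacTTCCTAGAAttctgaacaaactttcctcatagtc
Rasgrp1: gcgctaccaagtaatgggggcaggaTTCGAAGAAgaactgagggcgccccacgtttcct
Ptpn22: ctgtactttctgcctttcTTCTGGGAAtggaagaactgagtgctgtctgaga
RefSeq promoters were at hand for 30 of the measured members, with 43 starts. TTCNNNGAA was present at 6.98% of these starts and at 7.02% of all 32851 promoters, GTAAACA at 6.98% and 3.17%, and TGGAAA at 18.6% and 18.6%. A match is a run of letters and not a shown binding site.

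The arrays did not share one distribution of values. Over all probe sets, log2 values had an SD of 1.87 and 1.84 in the KO 1 arrays, 1.65 and 1.61 in the KO 2 arrays, and 1.56 to 1.70 in the WT arrays. Bcl6 itself was at 9.00, 8.82, 8.54 and 8.51 log2 in the KO-labelled arrays and at 7.97, 8.36, 8.33 and 7.86 in the WT arrays, so its level does not check the genotype labels. The Y-linked Eif2s3y, Kdm5d and Uty averaged 4.62 to 4.80 in KO-labelled and 6.94 to 8.30 in WT arrays. This Y-linked signal moved with the genotype label in each comparison of KO-labelled with WT cells. In these arrays its part in the results cannot be told apart from that of the genotype label. For the Treg label, 5 of 5 markers were measured (Foxp3, Ctla4, Ikzf2, Tnfrsf18 and Il2ra), with a mean over genes of 10.68 to 11.48 in KO-labelled and 9.72 to 10.56 in WT arrays. In 4 of these markers every KO-labelled array was above every WT array, and their part in the results was not tested. Means of the measured NK cell (5 of 5), B cell (5 of 6), myeloid (7 of 7) and CD8 (2 of 2) marker genes were 5.03 to 5.29, 6.08 to 6.46, 6.02 to 6.28 and 7.16 to 7.58 in the KO-labelled arrays, against 5.23 to 5.38, 6.15 to 6.48, 5.98 to 6.27 and 7.40 to 7.73 in the WT arrays. On this scale a gene that is not expressed still has a value, so no marker is at 0.

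The first question was whether genes of the TCR machinery had another level in KO-labelled than in WT Tregs. None of the 38 members passed the test over all genes (limma, Benjamini-Hochberg adjusted p under 0.05, called here), while 0.135% of all genes did (0.12% higher and 0.015% lower). The smallest adjusted p of a member was 0.701, and 1 member (Themis) had an unadjusted p under 0.05. Differences ran from -0.58 log2 (Themis) to 0.56 (Malt1). They were above 0 in 30 members and below 0 in 8, against 43.2% above and 56.8% below among all genes. The members were brighter, with a median level of 9.26 to 10.10 log2 over the arrays, against 6.83 to 7.13 for all genes. Shares over all genes are thus not shares among genes of like level. The part of level and array spread in these counts was not tested. The median difference was 0.23 over the members and -0.06 over all genes. There was no overlap between the groups in 4 members: 1 was higher in all KO-labelled arrays (Nfatc2) and 3 were lower (Themis, Dgka and Dgkz). Over all genes, 6.67% were higher with no overlap and 2.11% lower with no overlap. The 1 of 38 is a smaller share than the first of these and the 3 of 38 a larger share than the second.

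**Figure D1:**
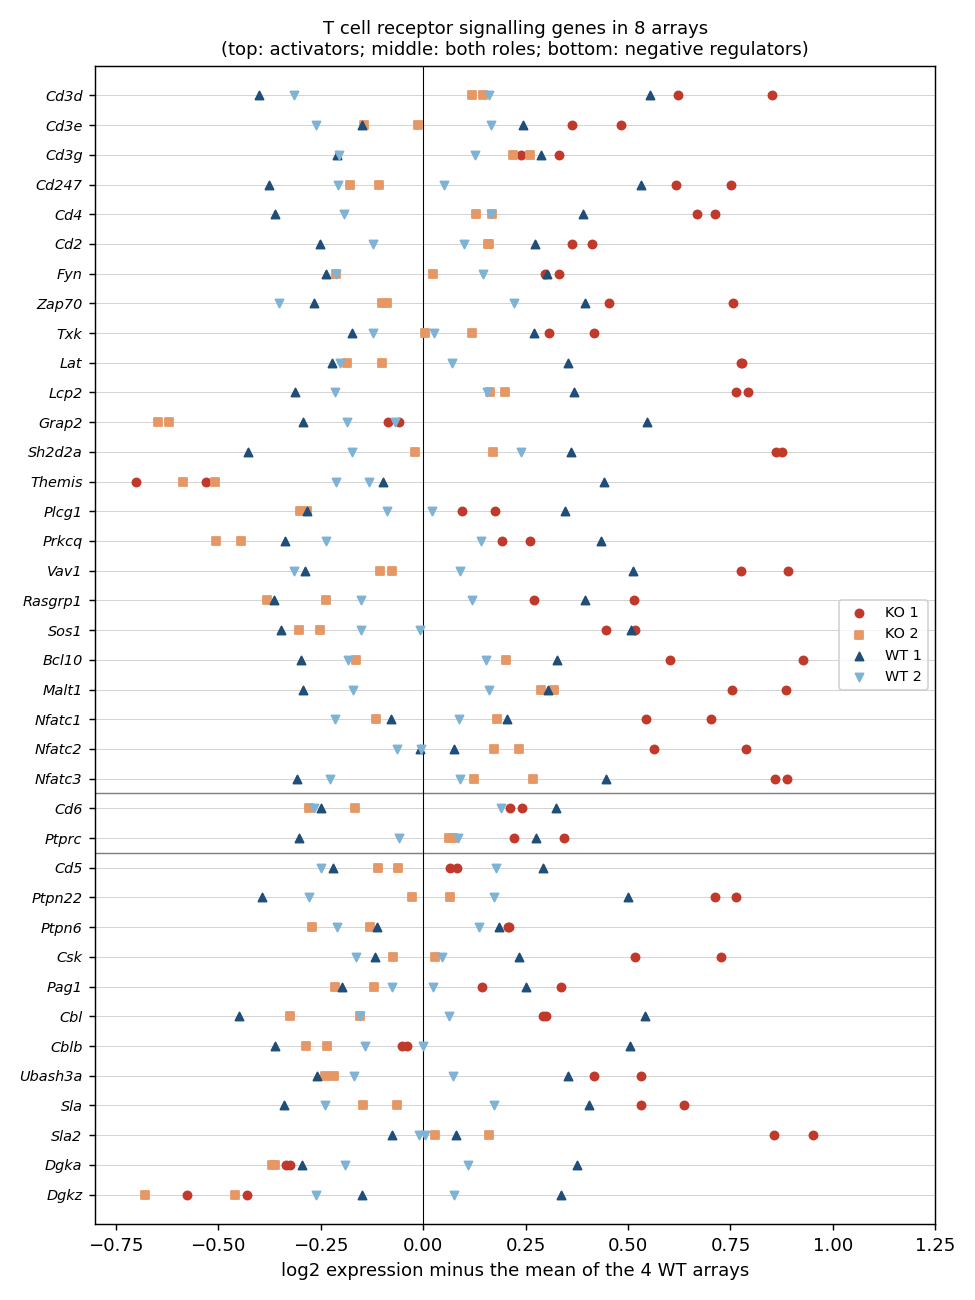
Log2 expression of the 38 genes in each array, as the difference from the mean of the 4 WT arrays (x axis), with a row for each gene and a symbol for each array by preparation. The KO 1 arrays lie to the right for most genes and the KO 2 arrays mostly among the WT arrays, and only Themis, Dgka and Dgkz have all 4 KO-labelled arrays to the left of all 4 WT arrays.

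Of the chains of the receptor complex, all 4 had a positive difference and none passed. Array values are given in the order 1A, 1B, 2A, 2B, and where KO 1 and KO 2 are each set against WT they share the 4 WT arrays. Cd3e was at 10.91, 10.79, 10.41 and 10.28 log2 in the KO-labelled arrays and at 10.28, 10.67, 10.59 and 10.16 in the WT arrays. Cd3g was at 12.04, 12.13, 12.02 and 12.06 in the KO-labelled arrays and at 11.59, 12.09, 11.93 and 11.60 in the WT arrays. The groups overlapped in both genes, and WT 1B stood within the KO-labelled range. Cd3d, the delta chain gene with the TTCNNNGAA match shown above, was at 10.34, 10.11, 9.64 and 9.61 in the KO-labelled arrays and at 9.09, 10.04, 9.65 and 9.18 in the WT arrays. Cd247, which encodes the zeta chain with its several signalling motifs, was at 9.66, 9.53, 8.74 and 8.81 in the KO-labelled arrays and at 8.54, 9.45, 8.97 and 8.71 in the WT arrays. In both, the KO 1 arrays were above every WT array and the KO 2 arrays lay inside the WT range. The differences were 0.17 (SE 0.32, adjusted p = 0.773) for Cd3e, 0.26 (SE 0.33, adjusted p = 0.714) for Cd3g, 0.43 (SE 0.41, adjusted p = 0.701) for Cd3d and 0.27 (SE 0.39, adjusted p = 0.732) for Cd247. The 95% interval of Cd3e reached from -0.52 to 0.86, so a difference anywhere in that range is not excluded.

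Cd4, the coreceptor that brings Lck to the receptor, averaged 10.67 ± 0.31 log2 in KO-labelled cells and 10.26 ± 0.34 in WT cells (± is the SD of 4 arrays). Cd2, an adhesion receptor that strengthens contact with the presenting cell, averaged 12.39 ± 0.13 in KO-labelled cells and 12.12 ± 0.23 in WT cells. Neither difference (0.42 and 0.27) exceeded the spread between arrays by the test. Cd6, a scavenger receptor described both to help and to restrain T cell activation, averaged 10.42 ± 0.26 and 10.41 ± 0.30 in the KO-labelled and WT arrays. Ptprc, the phosphatase CD45, which both activates and limits Lck, averaged 12.06 ± 0.13 and 11.89 ± 0.24 in the KO-labelled and WT arrays.

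Among the kinases, Zap70 was at 10.73, 10.43, 9.89 and 9.88 in the KO-labelled arrays and at 9.71, 10.37, 10.20 and 9.63 in the WT arrays. The KO 1 arrays held the highest values and the KO 2 arrays lay inside the WT range, and the difference was 0.26 (SE 0.38, adjusted p = 0.74). Fyn and the Tec family kinase gene Txk had differences of 0.11 and 0.21. The adaptor Lat, the platform on which the signalling complex is built, was at 11.03, 11.04, 10.16 and 10.07 in the KO-labelled arrays and at 10.03, 10.61, 10.33 and 10.05 in the WT arrays. Its KO-labelled values formed separate pairs, 0.78 above the WT mean in KO 1 and at -0.14 in KO 2, for a difference of 0.32 (SE 0.36, adjusted p = 0.703). Lcp2 and Sh2d2a, the gene of the Lck-binding adaptor TSAd, had differences of 0.48 and 0.47. Grap2 (Gads), which links Lat to Lcp2, was among the few activators with a negative difference, at -0.35 (SE 0.35), with -0.07 in KO 1 and -0.63 in KO 2.

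Themis, an adaptor needed in mouse thymocytes for positive selection, had the most negative difference of the members. It was at 6.92, 6.75, 6.94 and 6.87 log2 in the KO-labelled arrays and at 7.35, 7.89, 7.32 and 7.24 in the WT arrays. The KO-labelled values lay near the medians over all probe sets of those arrays (6.80, 6.84, 7.07 and 7.13). Whether Themis stands above background there was not tested. Every KO-labelled array was below every WT array, and the preparations were alike, at -0.62 in KO 1 and -0.55 in KO 2 against the WT mean. The difference was -0.58 (SE 0.26) with an unadjusted p of 0.0437 in limma and an adjusted p of 0.701, and its 95% interval was -1.14 to -0.02. The share of all genes with a lower level at an unadjusted p under 0.05 was 0.542%.

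None of the enzymes and exchange factors downstream of Lat passed. Plcg1, the phospholipase that makes diacylglycerol and the calcium-releasing inositol phosphate, was at -0.08, Prkcq, protein kinase C theta, at -0.12, Rasgrp1, a Ras exchange factor that binds diacylglycerol, at 0.04, Sos1, another Ras exchange factor, at 0.10, and Vav1, an adaptor and exchange factor, at 0.37. All 5 were above the WT mean in KO 1 (0.14 to 0.83) and below it in KO 2 (-0.47 to -0.09). Bcl10 and Malt1, partners in the complex that leads to NF-kB, had differences of 0.39 and 0.56. Malt1, a paracaspase, was at 9.82, 9.69, 9.22 and 9.25 in the KO-labelled arrays and at 8.64, 9.24, 9.09 and 8.76 in the WT arrays, an overlap by KO 2A with WT 1B alone (adjusted p = 0.701).

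The NFAT genes encode the factors that calcium signals send to the nucleus, and all 3 had positive differences in both KO preparations. Nfatc2 was at 8.75, 8.53, 8.14 and 8.20 in the KO-labelled arrays and at 7.96, 8.04, 7.96 and 7.90 in the WT arrays. Every KO-labelled array was above every WT array, the WT arrays lay close together (SD 0.06), and KO 1 stood further from them (0.68) than KO 2 (0.20). The difference was 0.44 (SE 0.24, adjusted p = 0.701). Nfatc1 had a difference of 0.33 and Nfatc3 of 0.53, and both overlapped with WT. Over the 24 activators, 20 differences were above 0. Their median was 0.27, and it was 0.61 for KO 1 and -0.03 for KO 2 taken alone.

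The negative regulators had a median difference of 0.03, with 8 of 12 above 0, and a median of 0.27 in KO 1 and -0.18 in KO 2. The diacylglycerol kinases, which remove the diacylglycerol that activates Rasgrp1 and protein kinase C theta, had all their KO-labelled arrays below all WT arrays. Dgkz was at 9.44, 9.30, 9.42 and 9.20 log2 in the KO-labelled arrays and at 9.72, 10.21, 9.95 and 9.61 in the WT arrays. Dgka was at 11.47, 11.48, 11.44 and 11.44 in the KO-labelled arrays and at 11.51, 12.18, 11.91 and 11.61 in the WT arrays. The KO-labelled values of Dgka lay close together (SD 0.02, against 0.30 in WT), and its lowest WT array was just above them. The difference of Dgkz was -0.54 (SE 0.30), with -0.50 in KO 1 and -0.57 in KO 2, and that of Dgka -0.35 (SE 0.34), with -0.33 in KO 1 and -0.36 in KO 2. Neither passed as deposited (adjusted p = 0.701 each). With KO 1 left out, Dgkz had a difference of -0.57, at an adjusted p of 0.00753 with the preparation as a random block, whose estimated correlation was then negative (-0.629), and of 0.423 with no block. The same fits called 1124 genes higher and 341 lower with the block, and 128 and 16 without it. With KO 2 left out Dgkz was at -0.50, with an adjusted p of 7.6e-04 with the block, whose correlation was again negative (-0.642), and of 0.0386 without it. Most of the 19937 genes passed in these fits, 7234 higher and 9666 lower with the block and 5997 higher and 7381 lower without it. With either KO preparation left out, the p-values rest on a single KO preparation and do not speak for the genotype. A second probe set of Dgkz, not used above, averaged 7.54 ± 0.25 in KO-labelled cells and 7.90 ± 0.13 in WT cells (± is the SD of 4 arrays). Its difference was -0.36 (SE 0.22). It was at 7.36, 7.29, 7.78 and 7.73 in the KO-labelled arrays and at 8.08, 7.90, 7.85 and 7.78 in the WT arrays. There KO 2A overlapped with WT 2B at 7.78, and both KO 1 arrays were lower than both KO 2 arrays.

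**Figure D2:**
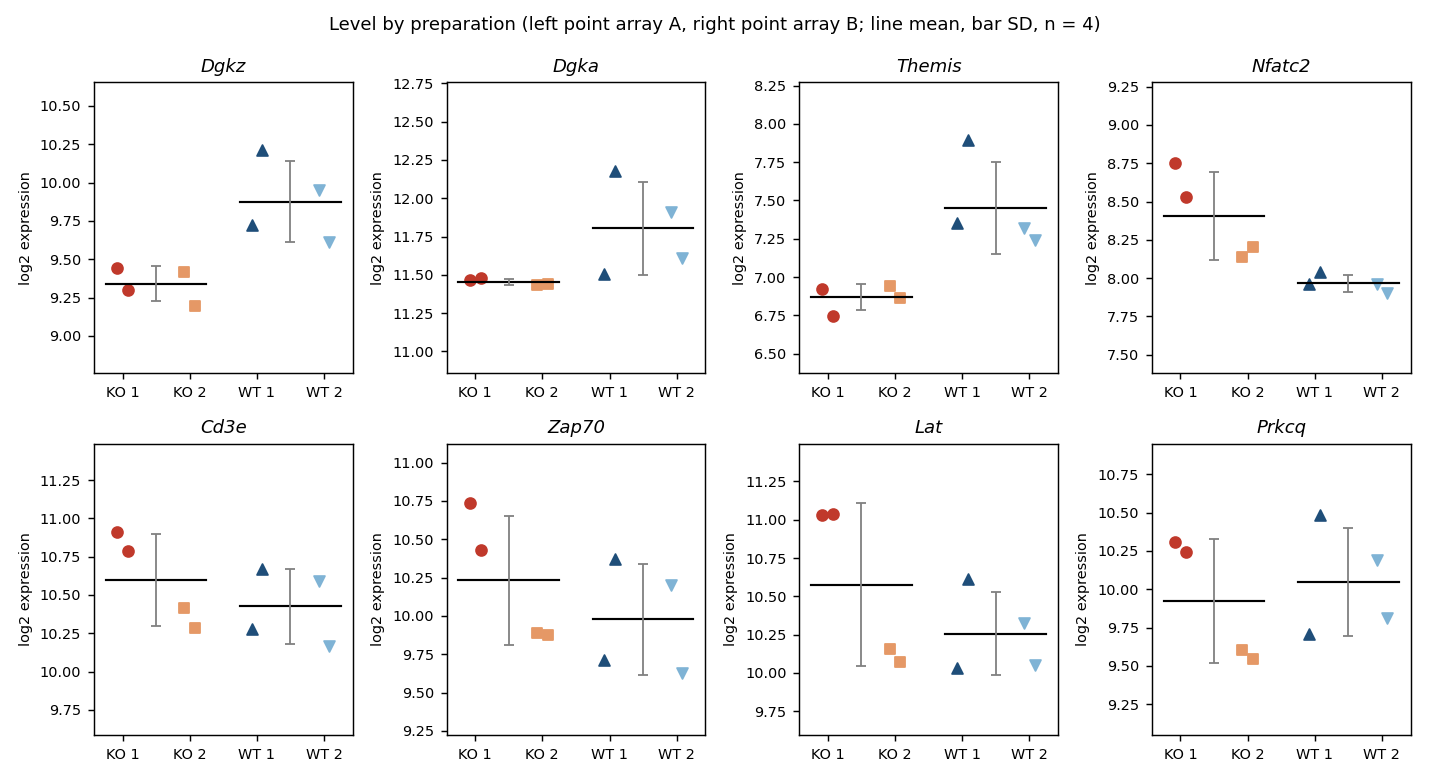
Log2 expression (y axis, the same span in each panel) of 8 genes by preparation (x axis), with array A left and array B right of each tick, a line at the group mean and a bar for the SD of 4 arrays. Dgkz, Dgka and Themis are lower and Nfatc2 is higher in every KO-labelled array, while in Cd3e, Zap70, Lat and Prkcq the KO 2 arrays reach into or below the WT range and the KO 1 arrays lie above KO 2.

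The other negative regulators overlapped between the groups. Sla2, an adaptor of the SLAP family that works with Cbl to lower receptor levels, was at 9.73, 9.64, 8.81 and 8.94 in the KO-labelled arrays and at 8.70, 8.86, 8.77 and 8.78 in the WT arrays, a difference of 0.50 (SE 0.28, adjusted p = 0.701) that came to 0.90 in KO 1 and 0.10 in KO 2. Its relative Sla had a difference of 0.24. Ptpn22, a phosphatase of Lck and Zap70, and Csk, which phosphorylates the inhibitory tyrosine of Lck, had differences of 0.38 and 0.30. Ptpn6 (the phosphatase SHP-1), Pag1 (a membrane adaptor that recruits Csk) and the ubiquitin ligase gene Cbl were at 0.00, 0.04 and 0.03. Cblb, a ubiquitin ligase that sets the need for costimulation, was at -0.15, Cd5, a receptor that dampens TCR signals, at -0.01, and Ubash3a, a Cbl-binding protein of the Sts family, at 0.12. The 95% interval of Cd5 was -0.71 to 0.70, so equal means do not show equal levels.

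The members also varied among the WT arrays, in a shared order. In all 38 members WT 1B was the highest of the WT arrays, which was so for 33.3% of all genes, and WT 1A was the lowest in 27 members (71.1%, against 25.9% of all genes). The spread of the WT arrays over all probe sets had the same order, 1.70 in WT 1B, 1.62 in WT 2A, 1.58 in WT 2B and 1.56 in WT 1A. In every array the members had a higher median level than all genes. The median level of the activators was 10.03, 9.96, 9.35 and 9.29 in KO 1A, 1B, 2A and 2B, against 9.00, 9.77, 9.40 and 9.17 in WT 1A, 1B, 2A and 2B. The activators were thus highest in the KO 1 arrays, and in the KO 2 arrays they were within the WT range. For the negative regulators, the median level was 9.92, 9.91, 9.50 and 9.43 in the KO-labelled arrays and 9.57, 10.14, 9.87 and 9.63 in WT 1A, 1B, 2A and 2B. The KO 2 arrays were lower than every other array in this median. The part of array spread in these values was not tested, and a lower level cannot be told apart from fewer cells expressing a gene in RNA from sorted populations.

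**Figure D3:**
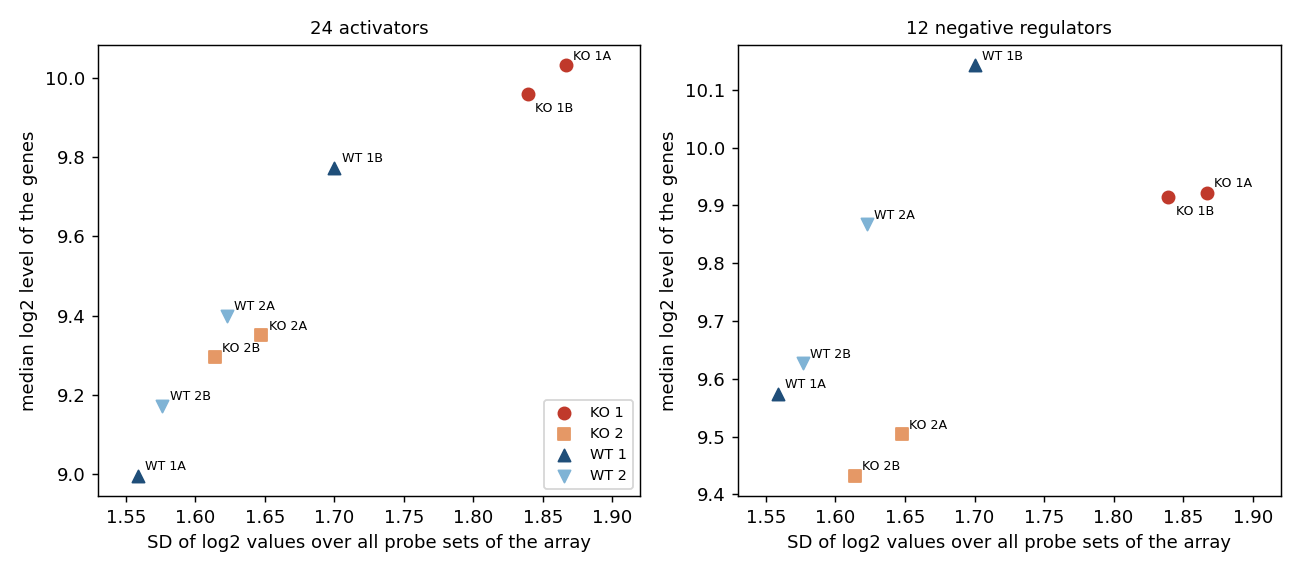
Median log2 level (y axis) of the 24 activators (left) and 12 negative regulators (right) in each array, against the spread of the array, as the SD of its log2 values (x axis), with a symbol for each preparation. The activators are highest in KO 1A and KO 1B, which have SDs of 1.87 and 1.84, and the negative regulators are lowest in KO 2A and KO 2B at 9.50 and 9.43.

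The KO preparations stood apart and were therefore also taken one by one. Set against WT alone and with no random block, KO 1 had 17 members called higher and 2 lower (Themis and Dgkz), among 5997 genes higher and 7381 lower. KO 2 had none, among 128 genes higher and 16 lower. Each of these fits holds a single KO preparation, so its calls describe that preparation and do not speak for the genotype. All but 1 of the members were higher in KO 1 than in KO 2, the exception being Themis at -0.07. Among all genes, which had a lower median level, 43.3% were higher in KO 1. In a limma fit with a group for each preparation, 16 members passed, all higher in KO 1. In that fit 27.7% of all genes were called higher and 31% lower in KO 1, or 58.8% in either direction. The 16 of 38 is a larger share than that of all genes called higher and a smaller share than that of all genes called in either direction. The members with the smallest p were Sla2 at 0.81 (SE 0.17, adjusted p = 0.0043), Lat at 0.92 (SE 0.24, adjusted p = 0.00936), Vav1 at 0.92 (SE 0.25, adjusted p = 0.0105), Ubash3a at 0.70 (SE 0.20, adjusted p = 0.0144) and Sos1 at 0.76 (SE 0.23, adjusted p = 0.0153). Bcl10, Cd247, Nfatc1, Csk and Nfatc2 followed, with differences of 0.47 to 0.83. Dgka at 0.03, Dgkz at 0.07 and Cd3g at 0.04 were nearly level between the KO preparations, as deposited and in the probe sets used. The second probe set of Dgkz was not level, at 7.36 and 7.29 in KO 1 and at 7.78 and 7.73 in KO 2. The same fit called 0 genes between WT 1 and WT 2, with 210 genes at an unadjusted p under 0.05. This does not show that the WT preparations are alike, since the arrays of WT 1 themselves lay far apart. Their activator medians were 9.00 (WT 1A) and 9.77 (WT 1B), against 10.03 and 9.96 in KO 1 and 9.35 and 9.29 in KO 2. The count of members rests on single arrays: it was 0 without KO 1A, 3 without KO 1B, 1 without KO 2A or KO 2B and 30 without WT 1A or WT 1B. On quantile-normalized values it was 2 (Lat and Pag1), with 18.7% of all genes called.

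Quantile normalization gives every array the same distribution of values and so removes the difference in spread. Under it Dgkz passed, at -0.83 (SE 0.16, adjusted p = 0.0473). It stood at -1.04 in KO 1 and at -0.63 in KO 2, while 0.181% of all genes were called lower and 0.607% higher. Over the alternatives tried, the adjusted p of Dgkz ran from 0.00051 to 0.999, and it was 0.0518 without KO 1 and with no random block on the same scale. Differences were above 0 in 20 members and below 0 in 18, against 47.7% above and 52.3% below among all genes. Arrays did not overlap in 10 members, 2 of them higher (Malt1 and Nfatc2) and 8 lower (Grap2, Themis, Plcg1, Prkcq, Ptpn6, Cblb, Dgka and Dgkz), against 7.36% of all genes higher and 4.73% lower. Grap2 had a difference of -0.64 (SE 0.17, adjusted p = 0.14), Dgka of -0.56 (SE 0.15, adjusted p = 0.153) and Prkcq of -0.43 (SE 0.19, adjusted p = 0.398). The median was 0.07 for the activators, -0.19 for the negative regulators and -0.01 for all genes. The positive differences of the CD3 chains, Zap70 and Lat as deposited thus shrank to between -0.08 (Cd3e) and 0.16 (Cd3d), with Cd3e, Cd247 and Zap70 turning below 0.

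**Figure D4:**
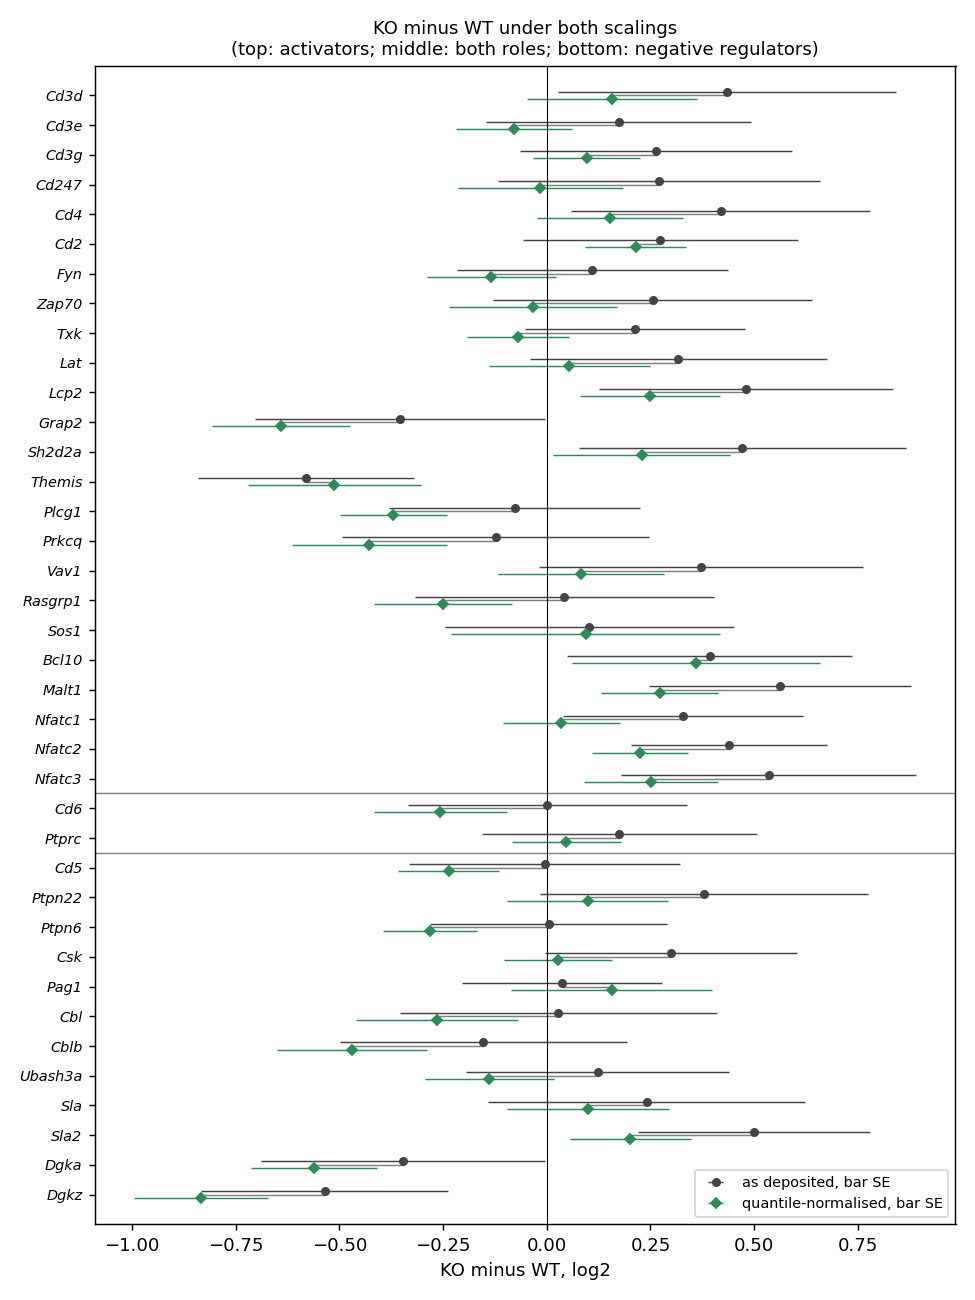
KO-labelled minus WT difference in log2 (x axis) for each gene, as deposited and after quantile normalization, with bars for the SE of the fit. Most genes move left under quantile normalization, and Dgkz, at -0.83, lies furthest from 0.

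Further genes of the pathway, from lists that do not hold the members, were measured for comparison. None of 41 measured activators (of 49 listed) and none of 37 measured negative regulators (of 38 listed) passed. At an unadjusted p under 0.05 in limma, 1 activator and 5 negative regulators were higher and 1 negative regulator was lower, against 5.65% of all genes higher and 0.542% lower. The medians were 0.27 and 0.21, with 0.56 and 0.48 in KO 1 and 0.00 and -0.01 in KO 2. With no overlap of arrays, 2 of the 41 activators were higher and 0 lower, and 6 of the 37 negative regulators were higher and 1 lower. Among all genes these shares were 6.67% and 2.11%. The 2 of 41 is a smaller share than the first of these and the 6 of 37 a larger one. The 4 negative regulators with the smallest p were Dusp5, Dok1, Dusp4 and Ubash3b, all among the 6. Dusp5, a nuclear phosphatase of ERK, was at 10.40, 10.35, 9.20 and 9.18 in the KO-labelled arrays and at 8.42, 8.53, 8.41 and 8.18 in the WT arrays, a difference of 1.40 (SE 0.33, adjusted p = 0.251). Dusp4, another MAP kinase phosphatase, was at 1.21 (SE 0.44, adjusted p = 0.655), Dok1, an adaptor that recruits Ras GTPase-activating protein, at 0.79 (SE 0.29, adjusted p = 0.644) and Ubash3b, the relative of Ubash3a, at 1.03 (SE 0.41, adjusted p = 0.701). The 1 lower gene was Spry1, which encodes an inhibitor of receptor signalling to ERK, at -0.66 (unadjusted p = 0.0364 in limma), and the MAP kinase phosphatase genes Dusp6 and Dusp2 were at -0.39 and 0.04. These 3 were named after their values were seen. Among the activators, Nck2, an adaptor to the actin cytoskeleton, was at 0.87 (SE 0.32, adjusted p = 0.667), Tec, a kinase, at 0.57, Akt1, a kinase downstream of phosphoinositide 3-kinase, at 0.58, and Arhgef6, an exchange factor, at 0.94. Each of these was further above the WT mean in KO 1 (0.94 to 1.41) than in KO 2 (0.15 to 0.48).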

How the data were processed

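RNA of 8 samples of sorted mouse Tregs, 4 KO-labelled and 4 WT by their titles, was measured on Affymetrix arrays. The authors deposited log2 values, 1 for each probe set and array. The submitters' processing notes name RMA and Partek, without versions. RMA summaries of different probe sets are not set against each other, apart from medians over sets of genes. All 28768 probe sets had values, no column of per-sample values was left unused, and no further normalization was applied. Names came from the platform annotation. Probe sets with 1 symbol (21771) gave 19937 genes.

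KO-labelled minus WT differences came from limma 3.58.1 (R 4.3.3, variance trend, preparation as a random block with an estimated correlation of 0.617, 12.8 degrees of freedom), adjusted over all genes, two-sided. KO preparations were compared in a limma fit with 4 preparation groups and no block. The code was tested on simulated data. The number of arrays limits precision. Members, lists and tests were chosen with earlier results of these data known. Every member could be named. Array values were given for members with an unadjusted p under 0.05 or no overlap, for the CD3 chains, Zap70 and Lat, and, chosen after their values were seen, for Malt1, Sla2 and Dusp5. Of the other pathway genes, the 4 with the smallest p in each list were named. Alternatives were other treatments of preparations, variance models, scalings, filters and probe sets, and leaving out each array or preparation. Promoters are RefSeq's (GRCm38.p6).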

Additional observations from a re-analysis of the deposited data

How the results depend on the processing

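As deposited, 24 genes were called higher and 3 lower, with 0 members. These counts were 92 and 21 with no random block, 45 and 7 on preparation means, 620 and 57 with the preparation number as a fixed block, 61 and 5 with array weights, 121 and 36 after quantile normalization and 12 higher with median centring. They were 1599 and 884 with array SD as a covariate, 1124 and 341 without KO 1, 7234 and 9666 without KO 2, 8 higher without WT 1, and 0 and 0 without WT 2. Leaving out 1 array gave 13 to 51 higher and 2 to 6 lower. Titles number the arrays alike in both groups, but same-numbered arrays did not all deviate together (correlations of -0.69, 0.77, -0.42 and 0.68). Arrays of unlike number had correlations from -0.77 to 0.76, so these values do not tell whether arrays were paired. No label calls them paired, and they are not treated so. With the replicate block 98 genes were higher and 15 lower, 0 members passed and 1 other pathway gene was higher.

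No member passed under the alternatives except as follows. Quantile normalization called 1 lower (Dgkz), among 36 of all genes called lower. The SD covariate, with an estimated correlation of -0.367, called 1 higher and 14 lower, among 1599 higher and 884 lower of all 19937 genes. Of these members, 7 turned sign (Cd6 -0.28, Lat -0.21, Rasgrp1 -0.39, Sos1 -0.36, Ptpn6 -0.24, Cbl -0.33 and Ubash3a -0.29). Without KO 1 there were 4 lower (Grap2, Themis, Prkcq and Dgkz), among 341 of all genes called lower. Without KO 2 there were 28 higher and 3 lower, among 7234 higher and 9666 lower of all genes. In both fits the estimated correlation was also negative (-0.629 and -0.642). Calls with a KO preparation left out rest on a single KO preparation and do not speak for the genotype. Combinations added after seeing the data gave, with no random block, 128 genes higher and 16 lower without KO 1 (0 members) and 5997 and 7381 without KO 2 (17 members higher, 2 lower). Quantile normalization with no random block gave 313 and 113 (3 members lower), the same without KO 1 184 and 51 (0 members), and without KO 2 4433 and 2610 (4 members higher, 5 lower).

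Other pathway genes called are given here with the count over all genes in brackets. They were 4 higher (620) with the preparation number as a block, and 1 higher (121) and 1 lower (36) after quantile normalization. With the SD covariate they were 11 higher (1599) and 18 lower (884). Without KO 1 they were 8 higher (1124) and 9 lower (341), and without KO 2 they were 62 higher (7234) and 4 lower (9666). In the added combinations they were 1 higher (128) without KO 1, and 46 higher (5997) and 2 lower (7381) without KO 2. On quantile values with no random block they were 1 higher (313) and 4 lower (113). On these values they were 1 higher (184) and 2 lower (51) without KO 1, and 25 higher (4433) and 6 lower (2610) without KO 2. Between KO 1 and KO 2, 16 members of 11714 called genes became 30 with array weights and 2 of 3738 after quantile normalization, and 0 to 30 of 868 to 14970 when 1 array was left out. The median of the activators ran from -0.09 to 0.61 and that of the negative regulators from -0.23 to 0.27, so both changed sign. Each shift from the deposited value was under the spread between arrays of a group (0.364 and 0.261). That spread includes the gap between KO 1 and KO 2, so it is a loose measure and does not show that the medians are stable. Grap2, Themis, Dgka and Dgkz were below 0 under all 29 alternatives (called in 4, 4, 4 and 7 of them), and Cd3d, Cd3g, Cd4, Cd2, Lcp2, Malt1, Nfatc2, Nfatc3 and Sla2 above 0. Several alternatives, such as no random block or no variance trend, leave the difference of a gene as it is. A sign kept in those is no test of it. For each of Grap2, Themis, Dgka and Dgkz, some calls came from fits with a KO preparation left out, which do not speak for the genotype. The causes of these shifts were not tested.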

Other observations

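A balance of activators against negative regulators, chosen after the values were seen, was computed in each array as a mean over genes of the deviation from each gene's mean over the 8 arrays. It is given as a description with no test. Activators minus negative regulators came to 0.16, 0.12, 0.03 and 0.03 log2 in KO 1A, KO 1B, KO 2A and KO 2B, against -0.11, -0.06, -0.08 and -0.11 in WT 1A, WT 1B, WT 2A and WT 2B. The groups did not overlap. Without Dgka and Dgkz the balance was 0.08, 0.03, 0.03 and 0.02 in the KO-labelled arrays and -0.05, 0.00, -0.03 and -0.07 in the WT arrays, so the groups stayed apart by 0.02. After quantile normalization, with all genes, it was 0.18, 0.14, 0.04 and 0.01 in the KO-labelled arrays and -0.13, -0.03, -0.08 and -0.13 in the WT arrays.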
